A study of Mus musculus with 48 samples.

Results

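The replication-dependent histone genes are the genes that supply new histones to cells copying their DNA. They were taken as every protein-coding gene whose GENCODE vM21 symbol begins with Hist1h, Hist2h, Hist3h or Hist4h, which gave 67 of the 55450 genes measured. By class these were 6 linker histone H1 genes, 18 H2A genes, 18 H2B genes, 12 H3 genes and 13 H4 genes. RNA came from 48 subcutaneous B16-D5 melanoma tumors, 3 in each of 16 conditions, in a study that asked whether iNOS, the inducible nitric oxide synthase encoded by Nos2, is needed for the response to an antibody against PD-1. In the first experiment 30 tumors grew in WT C57BL/6J mice and were taken untreated at 0 h, or untreated, after control IgG or after anti-PD-1 at 6 h, day 1 and day 3. In the second experiment 18 tumors were taken at day 7 from WT or iNOS KO mice that were untreated or had received IgG or anti-PD-1. All mice were young and carried the same implanted tumor line, which was left to establish before treatment. Per the study, the antibodies were scheduled for day 0 and day 3, so treated tumors taken at 6 h or day 1 preceded the later dose. The KO mice lack iNOS in every host cell, whereas the implanted melanoma cells keep their own Nos2 gene. Nos2 was between 1.15 and 5.92 CPM in the 9 KO tumors, with a median of 4.21, and between 1.40 and 7.28 in the 9 WT tumors, with a median of 3.28. These ranges overlapped (two-sided exact permutation test over libraries, p = 0.656), so the KO label could not be checked from this gene. CPM are counts scaled to a common library total after TMM scaling, the correction of edgeR for differences in composition between libraries.

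Histone mRNAs of this kind are made in S phase, when the chromosomes are copied and need a new set of nucleosomes, and are degraded when replication ends. Most lack introns and a poly(A) tail. Their 3′ end is instead a short stem-loop that is bound by the protein SLBP and cut by a complex guided by U7 snRNA. The genes lie in clusters, and several copies encode the same protein, so that a cell draws each core histone from many genes at the same time.

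The libraries were made from total RNA with a strand-specific kit and held between 25574203 and 47687872 counts in the first experiment and between 11625862 and 40959309 in the second. The histone genes received between 34796 and 275042 of these counts per library, or between 0.136% and 0.706%. The 7 melanoma markers summed to between 9306 and 20440 CPM over both experiments, so the labelled tumor type was present in every library. Several libraries stood apart. The IgG tumor 6 of the 6 h group had the lowest summed histone level and the lowest level of other RNAs without a poly(A) tail. The untreated 0 h tumor 3 held 5024 CPM of skeletal muscle markers and 3340 CPM of keratinocyte markers. Reads of genes for receptors of smell, pheromones and taste were taken as a measure of background. They were highest in WT anti-PD-1 tumors 3 and 4 of day 7 and untreated KO tumor 1, at 4089, 1448 and 1013 CPM. A share of histone counts equal to that background per kb came to at most 0.748% of the histone counts of a library. Fewer cells of a type and less RNA per cell cannot be told apart in such bulk samples.

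The 3′ stem-loop that defines these mRNAs was found in the annotated transcripts of 46 of the 67 genes, in 8 forms of 16 bases. The 5 sequences below are shown because they belong to the genes that the levels and comparisons turn on. They are read from the GENCODE vM21 transcripts on mm10, 5′ to 3′, with 5 flanking bases on each side, and the capitals mark the stem-loop.
Hist1h2bb (chr13:23747198-23747223, + strand): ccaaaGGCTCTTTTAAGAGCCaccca
Hist2h4 (chr3:96262934-96262959, - strand): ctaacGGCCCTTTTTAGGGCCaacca
Hist4h4 (chr6:136803993-136804018, - strand): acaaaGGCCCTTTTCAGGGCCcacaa
Hist1h4b (chr13:23757361-23757386, + strand): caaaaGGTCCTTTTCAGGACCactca
Hist1h1e (chr13:23621777-23621802, - strand): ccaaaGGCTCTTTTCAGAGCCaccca
The form of Hist1h1e was the most common and was found in 26 genes, whereas that of Hist1h2bb was found in 6, that of Hist4h4 in 7, and those of Hist2h4 and Hist1h4b in 2 each. In these 5 genes it was found between 27 and 54 bases after the stop codon. In many of the other 21 genes, among them Hist1h2ak, Hist1h1b and Hist2h2bb, the annotated transcript ends at the stop codon, so a missing match says only that these letters are not in the annotation.

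The promoters of 62 genes could be read from RefSeq windows on GRCm38.p6 that run from 250 bases before the start of transcription to 50 after it. The 250 bases before the start are printed for 3 genes. Hist1h2bb is the gene that passed the test in more than 1 comparison, and Hist1h1e and Hist1h1b are linker histone genes with the same kinds of motif and very different levels. Capitals mark 4 motifs on either strand, which are the TATA box core TATAAA, the NF-Y motif CCAAT, the octamer ATTTGCAT and the H1 box AAACACA, and the sequences are printed 5′ to 3′ on the strand of the gene.
Hist1h2bb (chr13:23746484-23746733, + strand): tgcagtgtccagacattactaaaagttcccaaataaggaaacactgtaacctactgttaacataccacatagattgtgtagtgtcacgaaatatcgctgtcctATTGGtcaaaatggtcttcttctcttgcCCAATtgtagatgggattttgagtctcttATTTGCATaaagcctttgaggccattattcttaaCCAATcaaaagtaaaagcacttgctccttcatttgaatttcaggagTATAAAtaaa
Hist1h1e (chr13:23622559-23622808, - strand): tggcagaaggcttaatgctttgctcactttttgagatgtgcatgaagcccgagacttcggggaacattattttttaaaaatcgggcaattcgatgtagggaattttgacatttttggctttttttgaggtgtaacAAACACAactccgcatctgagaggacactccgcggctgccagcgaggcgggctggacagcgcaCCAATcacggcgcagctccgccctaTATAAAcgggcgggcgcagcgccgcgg
Hist1h1b (chr13:21780626-21780875, - strand): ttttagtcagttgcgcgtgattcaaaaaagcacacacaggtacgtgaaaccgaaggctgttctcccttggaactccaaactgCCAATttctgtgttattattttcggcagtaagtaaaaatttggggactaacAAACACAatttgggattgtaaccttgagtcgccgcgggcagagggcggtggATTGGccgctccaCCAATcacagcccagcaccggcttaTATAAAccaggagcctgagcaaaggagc
Over the full windows, TATAAA, the core of the TATA box, was present in 56.5% of the 62 histone promoters and in 13.6% of all 32817 promoter windows of the same length. CCAAT, the motif of the factor NF-Y, was present in 85.5% against 37.4%. It was found in every H1, H2A, H2B and H3 window but in only 25% of the H4 windows. ATTTGCAT, the octamer that OCT1 binds, was present in 21% of the histone windows against 1.74% of all windows. All of these were H2A or H2B windows, where the shares were 38.9% and 37.5%. AAACACA, the H1 box, was present in 83.3% of the H1 windows against 7.19% of all windows. None of these motifs contains another. A match is a description of the letters and was not tested as a binding site.

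The 67 genes differed by several orders of magnitude in level, and the order of the highest genes was alike in both experiments. Levels between genes are given as the mean CPM per kb of annotated exon, over 30 and then 18 tumors. The highest of all was the H3 gene Hist2h3b, at 741 and 757 CPM per kb. It was followed by the H4 gene Hist2h4, at 536 and 677. The other leading H4 genes were Hist1h4b at 357 and 402 and Hist1h4d at 245 and 243, and the other leading H3 genes were Hist1h3c at 291 and 308 and Hist1h3e at 176 and 167. Among H2A genes, Hist1h2af had 319 and 311, Hist2h2ac 217 and 244, and Hist1h2ab 189 and 212. The leading genes of H2B, which pairs with H2A in the nucleosome, were lower, with Hist1h2bb at 104 and 114, Hist1h2bc at 85.7 and 88.7, and Hist2h2bb at 57.3 and 71.3. Of the linker histones, which bind the DNA between nucleosomes, Hist1h1e had 157 and 153, Hist1h1c 66.9 and 59.3, and Hist1h1d 33.8 and 42.9.

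In CPM without the length, a single gene carried the most histone reads. Hist2h4 was between 104 and 1440 CPM over the tumors of the first experiment, with a median of 863, and between 618 and 2682 in the second, with a median of 969. The sum of all genes without Hist2h4 was between 67.8% and 91.5% of the full sum in the first experiment and between 60% and 81.1% in the second. The H4 class as a whole made up a median of 40.95% and 42.05% of the histone CPM in the 2 experiments. H3 followed with 22.3% and 22.2%, then H1 with 16.3% and 16.4% and H2A with 12.1% and 11.8%. H2B, although encoded by as many genes as H2A, made up 7.71% and 7.40%. The annotated exons of some genes are much longer than the histone mRNA, for example 7425 bases for Hist1h1d and 1630 for Hist2h4, which lowers their level per kb.

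**Figure D1:**
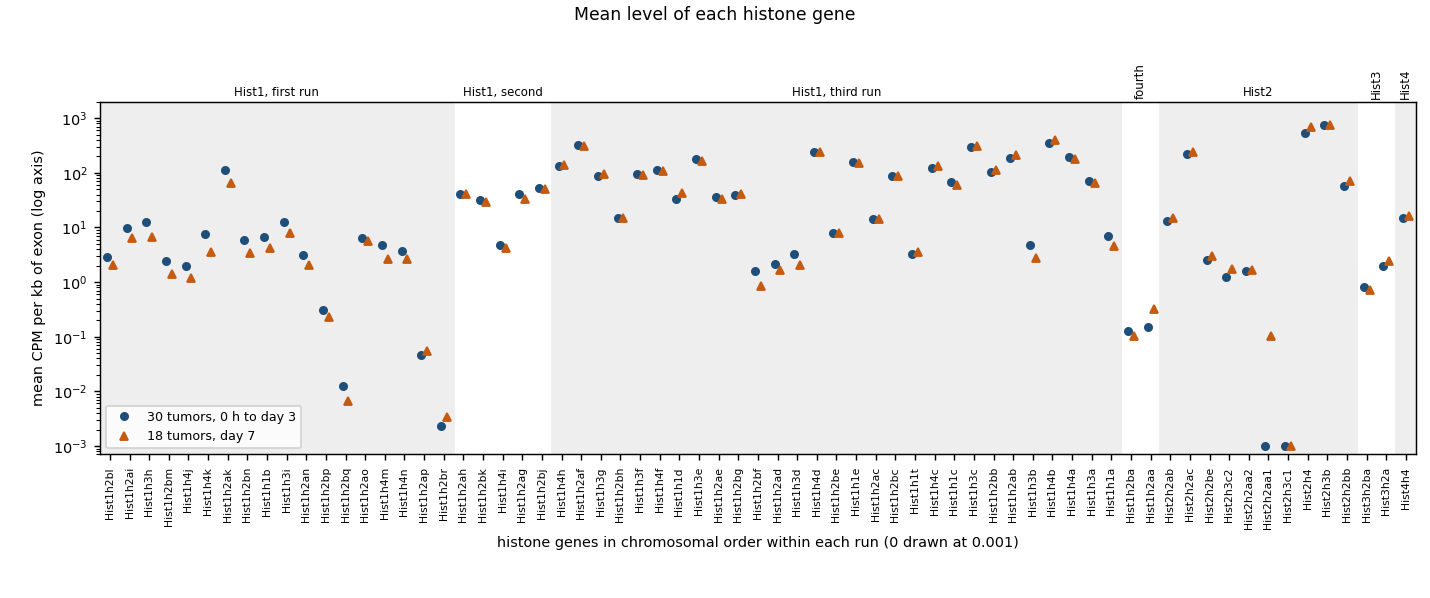
Mean CPM per kb of exon on a log axis for each of the 67 histone genes, in chromosomal order within each cluster, over the 30 tumors of the first experiment (circles) and the 18 of the second (triangles). Shading separates the clusters and the 4 runs of Hist1. In the first run of Hist1, Hist1h2ak at 111 CPM per kb stands above genes that lie at or below 12.6, whereas most genes of the third run lie above 10.

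The position of a gene in its cluster went with its level. The 54 Hist1 genes lie on chromosome 13 between 21715763 and 23934851 and fall into 4 runs separated by more than 100000 bases, a split made after the levels had been seen. The first run (21715763 to 21837530) holds 18 genes, and 17 of them had a mean under 10 CPM in both experiments. The third run (23531050 to 23764406) holds 29 genes, of which 6 were under 10 CPM. The median level was 4.25 and 2.67 CPM per kb in the first run, and 85.7 and 88.7 in the third. The second run of 5 genes (22035164 to 22043676) lay between them, at 40.6 and 32.6.

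The exception in the first run was Hist1h2ak, which encodes a common H2A. It was between 18.1 and 82.8 CPM in the first experiment and between 11.5 and 35.8 in the second. The lowest genes of the third run include 3 neighbours, Hist1h2bf, Hist1h2ad and Hist1h3d, at 1.60, 2.13 and 3.20 CPM per kb in the first experiment. Hist1h1a, the linker histone H1.1, and Hist1h1b, the linker histone H1.5, were also low. Hist1h1b was between 1.96 and 11.5 CPM in the first experiment and between 1.15 and 4.92 in the second. Per kb, Hist1h1e was 24 and 35.9 times as high as Hist1h1b in the 2 experiments. Both printed promoters hold the H1 box, CCAAT and TATA motifs, and CCAAT is marked more often in that of Hist1h1b.

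Histone copies are alike in sequence, and reads that fit several copies cannot be assigned with certainty. Counting programs treat such reads differently, and which program made these counts is not certain. In the coding sequences of equal length, the median identity was 96.4% among H2A genes, 95.7% among H2B, 97.6% among H3 and 93.9% among H4. A median of 25.4% of the 100-base stretches of a gene in the first run occurred in no other transcript, against 69.3% in the third. The 34 genes under 10 CPM in the first experiment had a median of 40.9% unique stretches and the other 33 genes 68.2%, and all 8 genes whose coding sequence is identical to that of another member were under 10 CPM. Over the 67 genes, uniqueness and level per kb had a Spearman rho of 0.224 in the first experiment and 0.246 in the second. Among genes with more than 50% unique stretches, the 5 of the first run had a median of 2.42 CPM per kb in the first experiment, and the 25 of the third run had 85.7. The part of shared reads in the low levels was not tested. Hist1h1a and Hist1h1b had 100% unique stretches. The highest gene, Hist2h3b, had 22.9%, and the highest H2A gene, Hist1h2af, had 34.7%. The share of reads from other copies in their levels is not known. The levels of Hist1h2bq, Hist1h2br and Hist1h2ap, at or below 0.0546 CPM per kb, and of the Hist2 copies named next rest on few unique bases and are uncertain.

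The other clusters are small. The Hist2 cluster on chromosome 3 (96219865 to 96270132) holds 10 genes and contributed a median of 34.3% and 35.6% of the histone CPM. This came mainly from Hist2h4, Hist2h3b and Hist2h2ac. Hist2h2bb was between 7.35 and 34.3 CPM in the first experiment and between 12.6 and 59.0 in the second. Hist2h2ab, with a median of 5.79 and 6.46 CPM, Hist2h2be, with 6.60 and 7.58, and Hist2h3c2, with 1.07 and 1.18, were low. Hist2h3c1 was listed at 0 in all 48 libraries, and none of its 100-base stretches is unique. Hist2h2aa2 had a mean of 0.854 and 0.873 CPM, whereas its copy Hist2h2aa1 had 0 and 0.0615. Of the Hist3 genes on chromosome 11, Hist3h2a had a median of 4.15 and 5.12 CPM, and Hist3h2ba had 0.442 and 0.207. Hist4h4, the only Hist4 gene, lies on chromosome 6 and had a median of 41.2 and 41.4 CPM.

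Genes known from the testis were low but not all absent. Hist1h1t, the testis-specific linker histone, lies within the third run and was detected in all 48 libraries, between 0.962 and 5.20 CPM in the first experiment and between 1.18 and 4.64 in the second. Hist1h2aa and Hist1h2ba, the testis H2A and H2B, form the fourth run (23933773 to 23934851). They were listed at 0 in 16 and 22 of the 30 libraries of the first experiment and in 10 and 14 of the 18 libraries of the second, and never exceeded 0.735 CPM. A count of 3 corresponds to between 0.0688 and 0.197 CPM, depending on the library. The 6 male germ cell markers summed to at most 1.67 CPM in the first experiment and 9.64 in the second.

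Summed over all 67 genes, histone transcripts ranged 5.38-fold between tumors in the first experiment and 2.26-fold in the second. In some groups, among them the untreated 0 h and the untreated KO tumors, the tumors spread more widely than the group means. Other groups were tighter. The sums were between 1221 and 6573 CPM in the first experiment, with a median of 4139, and between 2969 and 6705 in the second, with a median of 4374. The untreated 0 h tumors had 6310, 4739 and 1721 CPM, and the untreated 6 h tumors had 3160, 6573 and 5965. These groups overlapped. The 6 h tumors had 5438, 4274 and 3676 CPM after anti-PD-1 and 3893, 4533 and 1221 after IgG, which also overlapped. The IgG group of day 1 was the tightest, at 2941, 2785 and 3003 CPM.

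At day 7, the untreated KO tumors had the highest group mean, with 6705, 4127 and 5832 CPM, against 3298, 3781 and 4348 in untreated WT tumors. The KO mean was 5555 ± 1311 CPM (SD, n = 3) and the WT mean 3809 ± 526 (SD, n = 3), and the groups overlapped. The sums of H4 did not overlap, with 3775, 2231 and 2726 CPM in KO and 1070, 1577 and 1716 in WT. These include Hist2h4, which alone had a mean of 1948 CPM in KO and 793 in WT. Whether the other H4 genes would be apart without it was not tested. The sums of H2B did not overlap either, with 535.6, 355.0 and 466.3 CPM in KO and 251.9, 246.5 and 292.6 in WT. The sums of H1, H2A and H3 did overlap. Without Hist2h4 the group means were 3607 ± 825 and 3016 ± 397, so that Hist2h4 made up 66.2% of the difference between the summed means.

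**Figure D2:**
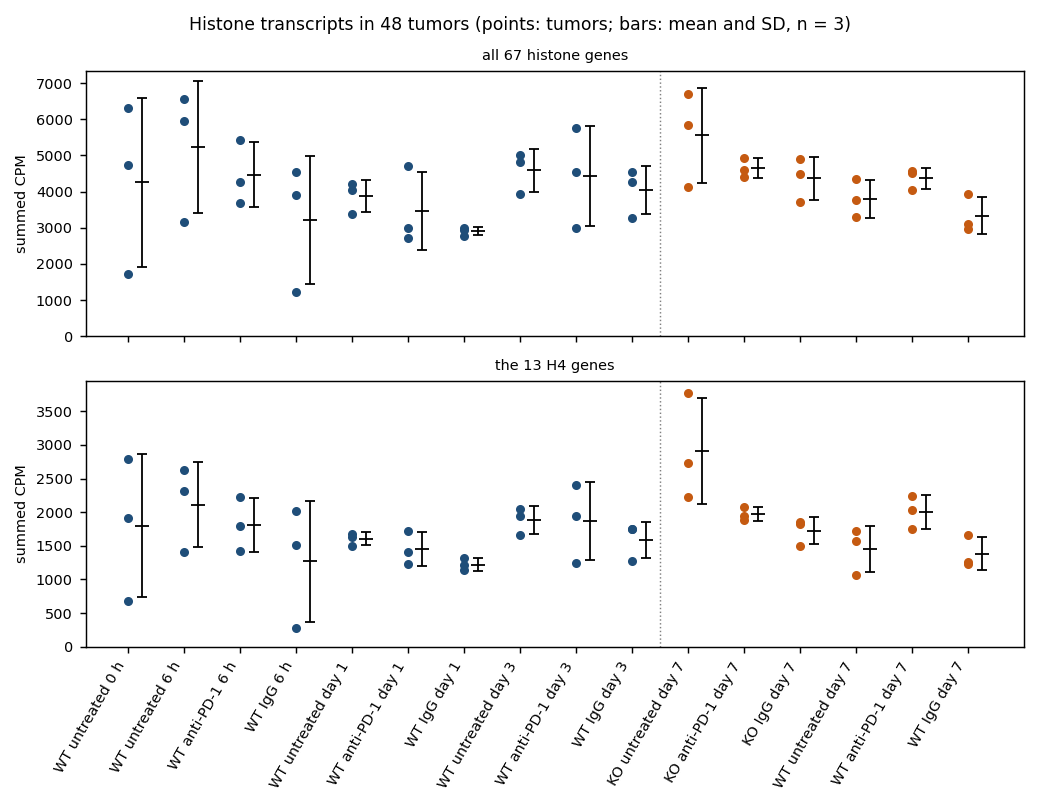
Summed CPM of the 67 histone genes (top) and of the 13 H4 genes (bottom) in each of the 48 tumors, by condition, with the mean and SD of 3 tumors. The untreated KO tumors of day 7 reach 6705 CPM for all genes and 3775 for H4, and single low tumors at 1221 and 1721 CPM lie in the IgG 6 h and untreated 0 h groups.

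The makeup of the histone pool was steady except in a few tumors. H4 made up between 36.6% and 51.7% of the histone CPM in 29 of the 30 tumors of the first experiment and 22.2% in the IgG tumor 6 of the 6 h group. In the same tumor H1 made up 36%, whereas the other 2 tumors of its group had 15.96% and 15.38%. At day 7, H4 made up 56.3%, 54.1% and 46.8% in the untreated KO tumors and 32.5%, 41.7% and 39.5% in the untreated WT tumors.

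Across tumors of the first experiment, the summed level of the third run went with the genes of DNA replication. The sum of all 67 genes went with those of histone synthesis and mitosis. In the second experiment the relation to DNA replication was weaker, and the others were weak or of the opposite sign. The correlations are descriptions over libraries that share a table, a normalization and, in each group, a treatment. The lists were compared as the mean log2(CPM + 0.5) of their genes. The third run, with its 29 genes, had r = 0.863 with the 34 genes of DNA replication and S phase over the 30 tumors of the first experiment (Spearman rho 0.945, r = 0.865 without the 2 tumors farthest from the median). Over the 18 tumors of the second it had r = 0.485 (rho 0.443), and r = 0.272 without the 2 farthest, so that this relation rested in part on those tumors. With the melanoma markers it had r = 0.814 and 0.413, and with the leukocyte markers -0.301 and -0.202. The summed level of all 67 genes had r = 0.705 with the genes of histone mRNA synthesis and 3′ processing in the first experiment and -0.252 in the second (rho 0.0774, and r = 0.246 without the 2 farthest tumors). With the mitosis genes it had r = 0.712 and -0.150 (-0.524 without the 2 farthest of the second experiment).

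The first run without Hist1h2ak had r = -0.174 and -0.192 with the S-phase genes and r = 0.164 and 0.152 with the third run (-0.343 and 0.442 without the 2 farthest tumors). With the leukocyte markers it had r = 0.582 (rho 0.573, n = 30) and 0.590 (rho 0.715, n = 18), and with the macrophage markers 0.610 and 0.522. This was not particular to the first run. Single genes of the third run had a median r of -0.162 and -0.0315 with the leukocyte markers. Among its low genes, however, Hist1h3b had 0.624 and 0.347, Hist1h1a 0.457 and 0.713, and Hist1h3d 0.373 and 0.413. Hist1h1t, also low, had -0.348 and -0.462. Hist1h2ak had r = 0.617 and 0.666 with the leukocyte markers and 0.687 and 0.728 with the fibroblast markers. The summed level of all 67 genes had r = 0.572 and 0.790 with the other RNAs without a poly(A) tail (rho 0.178 and 0.769, and r = 0.312 and 0.652 without the 2 farthest tumors). It had r = 0.591 and 0.746 (rho 0.431 and 0.835) with the mean log2 level of 483 protein-coding genes under 1000 bases of exon minus that of 2834 genes over 8000 bases.

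**Figure D3:**
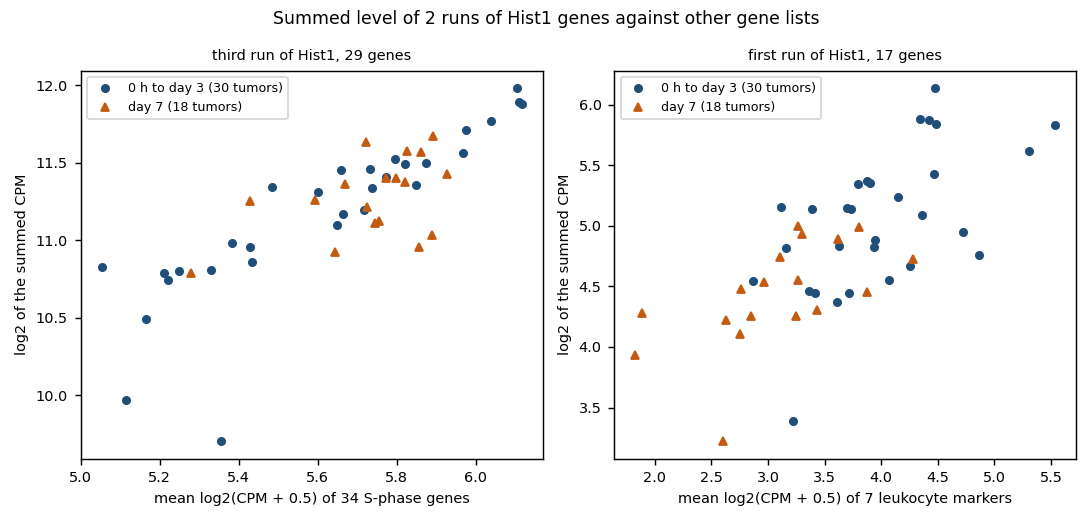
Left, the log2 of the summed CPM of the third Hist1 run against the mean log2 level of the 34 S-phase genes (r = 0.863 and 0.485). Right, the same sum for the first run without Hist1h2ak against the 7 leukocyte markers (r = 0.582 and 0.590). Each point is a tumor of the first experiment (circles) or the second (triangles).

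No histone gene passed the test in the first experiment, in any of the 9 comparisons of treatment or time (edgeR quasi-likelihood F-test with Benjamini-Hochberg adjustment over 26848 genes, of which 60 were histone genes that passed the filter on low counts). Of all genes, 0.0% passed in each of these comparisons, and DESeq2 also called 0 histone genes, against 0.00372% to 0.894% of all genes. Between anti-PD-1 and IgG at 6 h, 54 of the 60 genes had a higher mean level after anti-PD-1, with a median log2 fold change of 0.46, and all 29 of the third run were among them. Of all genes 42.9% were higher, with a median of -0.07. At an unadjusted p under 0.05, 1 histone gene was higher and 0 lower, against 0.778% and 3.6% of all genes. This gene was Hist1h2bf, a low H2B gene (log2 fold change 2.94 ± 1.31 SE, adjusted p = 0.967). The size of the median rested on a single library. Without the IgG tumor 6 it was 0.05, and that tumor was the one with the lowest level of other RNAs without a poly(A) tail. At day 1 the median was 0.25, with 45 of 60 genes higher, against 48.3% of all genes, and at day 3 it was 0.05, with 35 of 60 higher, against 50.2%. The smallest unadjusted p belonged to Hist3h2a (-0.78 ± 0.34 SE) and Hist1h2bk (0.74 ± 0.47 SE) at day 1 and to Hist2h3c2 (-1.06 ± 0.56 SE) and Hist1h2bn (-1.23 ± 0.73 SE) at day 3, all with an adjusted p of 1. Before adjustment 0 genes were higher and 1 lower at day 1, against 1.1% and 2.53% of all genes, and 0 in either direction at day 3, against 0.518% and 1.62%. Without 1 library it ranged from -0.09 to 0.39 at day 1 and from -0.13 to 0.23 at day 3.

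The comparison of IgG with untreated tumors gave the opposite sign at 6 h, where 54 of 60 genes were lower and the median was -0.67, against 0.10 over all genes. These comparisons share the IgG tumors with the former. Without the IgG tumor 6 the median was -0.34. At this time Hist1h2bn (log2 fold change -1.89 ± 0.75 SE) and Hist1h2bl (-1.78 ± 0.83 SE), were the 2 genes with an unadjusted p under 0.05, and both had an adjusted p of 0.760. Of all genes 3.53% were higher and 1.89% lower at that level. At day 1 the median was -0.35, and the runs went apart. In the third run 24 of 29 genes were lower, with a median of -0.45, whereas in the first run 13 of 15 were higher, with a median of 0.53. The gene with the smallest unadjusted p was Hist1h2be (-0.82 ± 0.29 SE, adjusted p = 0.859), whose exons overlap those of Hist1h1e on the same strand. The next was Hist1h3h, an H3 gene of the first run (0.92 ± 0.52 SE, adjusted p = 0.859). At day 3 the median was -0.06, and Hist1h2an (1.57 ± 0.95 SE) and Hist1h1a (0.63 ± 0.40 SE) had the smallest unadjusted p. Before adjustment 0 genes were higher and 1 lower at day 1, against 4.01% and 1.42% of all genes, and 0 in either direction at day 3, against 1.36% and 1.28%.

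In untreated WT tumors over time, the median log2 fold change against 0 h was 0.16 at 6 h, -0.16 at day 1 and 0.03 at day 3. Leaving out 1 library at a time moved these medians to either side of 0. Without the untreated 0 h tumor 3, which held the muscle and keratinocyte markers, the median at 6 h was -0.04. Of the 60 genes, 0 had an unadjusted p under 0.05 at any of these times. Of all genes, 1.11% were higher and 5.81% lower at 6 h, 2.58% and 4.27% at day 1, and 2.2% and 4.69% at day 3. The smallest unadjusted p belonged to Hist1h3i at 6 h (-0.87 ± 0.49 SE, adjusted p = 0.728). At day 1 it belonged to Hist3h2a (0.67 ± 0.34 SE, adjusted p = 0.735) and at day 3 to Hist1h2ao (0.95 ± 0.49 SE, adjusted p = 0.699).

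**Figure D4:**
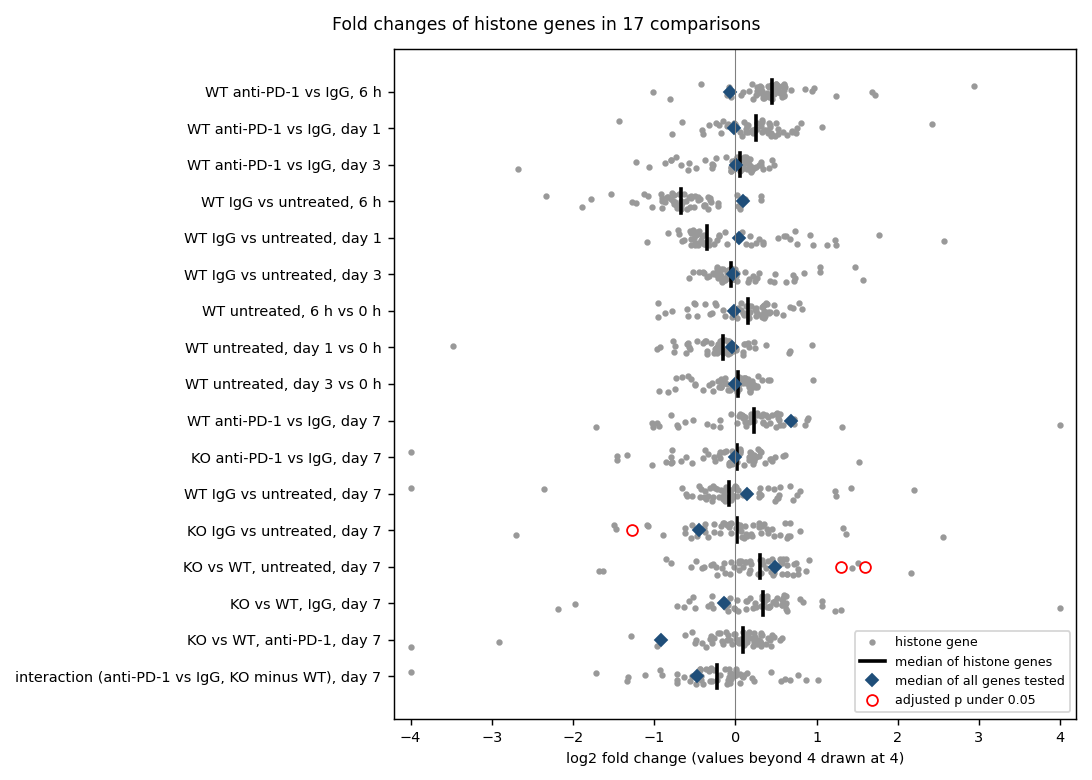
Log2 fold change of each tested histone gene (grey points), their median (black bar) and the median of all genes tested (blue diamond) in the 17 comparisons. Red circles mark an adjusted p under 0.05, which Hist1h2bb and Hist2h4 reached in untreated KO against WT tumors and Hist1h2bb in KO IgG against untreated KO tumors.

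At day 7, 61 histone genes were tested among 30837. In untreated tumors, 2 genes were higher in KO than in WT mice, where 0.587% of all genes passed in either direction. Hist1h2bb, an H2B gene of the third run, had 163, 88.7 and 86.1 CPM in KO tumors and 23.2, 45.5 and 42.8 in WT tumors. Its lowest KO value lay above its highest WT value (log2 fold change 1.60 ± 0.25 SE, adjusted p = 0.00724). Hist2h4, the most abundant H4 gene, had 2682, 1470 and 1691 CPM in KO tumors and 622, 860 and 896 in WT tumors, again without overlap (1.3 ± 0.26 SE, adjusted p = 0.0252).

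Hist4h4, the H4 gene on chromosome 6, came close, with 99.7, 59.1 and 83.8 CPM in KO and 28.9, 23.8 and 37.1 in WT (1.43 ± 0.33 SE, adjusted p = 0.0521). Hist2h2bb, which lies in the Hist2 cluster with Hist2h4, had 59.0, 27.9 and 37.04 CPM in KO and 24.3, 19.4 and 24.3 in WT (0.87 ± 0.25 SE, adjusted p = 0.158). These 2 genes were named after their values were seen. In 10 of the 61 genes every KO tumor was above every WT tumor and in 0 genes below, against 9.73% and 8.00% of all genes. The median of the histone genes was 0.30, lower than the 0.49 of all genes tested, and 43 of 61 were higher, against 67.1% of all genes. Before adjustment 12 were higher and 1 lower, against 13.1% and 3.37%. The abundant H3 gene Hist2h3b had 356, 299 and 413 CPM in KO and 413, 385 and 399 in WT.

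In KO mice, untreated tumors were also compared with tumors after IgG, a comparison that shares the untreated KO tumors with the former. Here 1 histone gene passed, where 0.188% of all genes did. Hist1h2bb was lower after IgG, at 49.3, 42.2 and 48.5 CPM against 163, 88.7 and 86.1 (log2 fold change -1.27 ± 0.25 SE, adjusted p = 0.0400). Hist2h4 had 978, 959 and 831 CPM after IgG (-1.08 ± 0.26 SE, adjusted p = 0.0948). Hist4h4 had 49.1, 44.3 and 20.8 (-1.09 ± 0.33 SE, adjusted p = 0.215) and Hist2h2bb 24.2, 26.2 and 16.4 (-0.89 ± 0.25 SE, adjusted p = 0.176). The histone median was 0.02 and that of all genes -0.45. Before adjustment 3 histone genes were higher and 8 lower, against 2.95% and 12.7% of all genes.

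**Figure D5:**
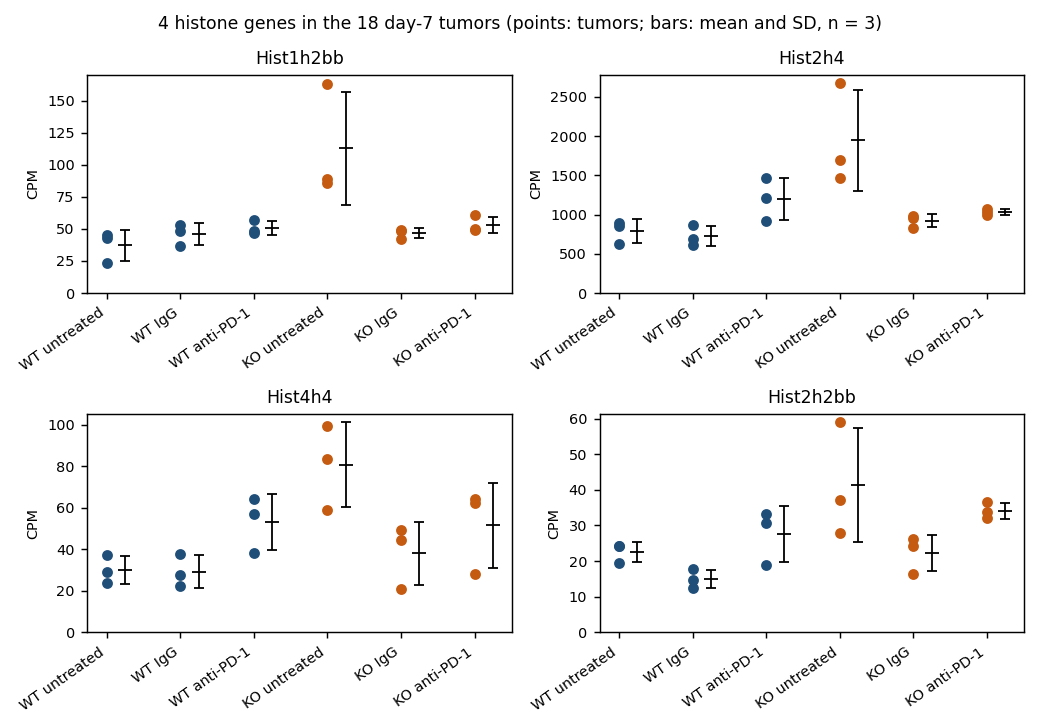
CPM of Hist1h2bb, Hist2h4, Hist4h4 and Hist2h2bb in the 18 tumors of day 7, by genotype and treatment, with the mean and SD of 3 tumors. The untreated KO tumors have the highest group mean in all 4 genes, with 86.1 to 163 CPM for Hist1h2bb and 1470 to 2682 for Hist2h4.

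Both results rest on the untreated KO tumors, and other measures moved with these 3 tumors. Rn7sk, the abundant 7SK RNA, which also has no poly(A) tail, had 11275, 5680 and 6029 CPM in untreated KO tumors, 2573, 3190 and 2449 in untreated WT tumors and 1995, 2311 and 2773 in KO tumors after IgG. The difference between short and long transcripts was -2.68, -2.76 and -2.56 on the log2 scale in untreated KO tumors, and between -3.38 and -3.18 in untreated WT and between -3.21 and -3.14 in KO IgG tumors. H2afz, which encodes the replication-independent H2A.Z, had 383, 286 and 381 CPM against 179, 195 and 225 (0.81 ± 0.20 SE, adjusted p = 0.0888). The fibroblast markers had a mean log2 level of 6.92, 6.78 and 7.32 in untreated KO tumors, between 7.10 and 9.39 in untreated WT tumors and between 8.75 and 9.39 in KO IgG tumors. The part of these in the result was not tested.

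With the receptor background as a covariate, 1 histone gene passed between untreated KO and WT tumors, against 0.104% of all genes, and 0 between KO IgG and untreated KO tumors, against 0.0%. Without the 3 libraries with the most background, untreated KO tumor 1 among them, 3 and 2 passed, against 1.22% and 1.02% of all genes. Hist1h2bb kept an adjusted p under 0.05 between untreated KO and WT tumors in 13 of 14 alternatives, the exception being the fit without the untreated WT tumor 1 (1.35, adjusted p = 0.0837). Hist2h4 did so in 9 of 14. The exceptions were the covariate (adjusted p = 0.125) and the fits without the untreated KO tumor 1 (0.102) or the untreated WT tumor 1, 2 or 3 (0.208, 0.0949 and 0.083). The lower level of Hist1h2bb after IgG lost its call without the untreated KO tumor 1 or 2 or without any of the 3 KO IgG tumors (adjusted p between 0.0622 and 0.257), and with the covariate (0.35).

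Between KO and WT tumors given IgG, 0 histone genes passed with edgeR or DESeq2, against 0.0% and 0.12% of all genes. At an unadjusted p under 0.05, 10 were higher in KO tumors and 0 lower, against 2.15% and 4.12% of all genes. The histone median was 0.35, against -0.14 over all genes, and in 10 of 61 genes every KO tumor was above every WT tumor, against 5.70% of all genes. In 1 gene, Hist1h1a, every KO tumor was below, against 6.43% of all genes. The smallest unadjusted p-values were those of Hist1h2bk (1.06 ± 0.28 SE) and Hist1h1e (0.59 ± 0.19 SE), both with an adjusted p of 0.626. Between KO and WT tumors given anti-PD-1, 0 genes passed with edgeR (0.0% of all genes) and 1 with DESeq2 (9.84% of all genes), and before adjustment 3 were higher (5.69% of all genes) and 1 lower (26.6%), with a histone median of 0.10 against -0.91 over all genes. Here Hist1h1e (0.55 ± 0.19 SE, adjusted p = 0.129) and Hist1h4d (0.48 ± 0.20 SE, adjusted p = 0.138) had the smallest unadjusted p. In untreated tumors Hist1h1e had the opposite sign, with 259, 259 and 300 CPM in KO and 350, 271 and 338 in WT (-0.23 ± 0.19 SE, adjusted p = 0.466). Hist1h2bb, which passed in untreated tumors, had a mean of 46.7 CPM in KO and 46.1 in WT tumors after IgG. After anti-PD-1 its means were 53.2 and 50.6 CPM.

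Anti-PD-1 against IgG gave 0 passing histone genes in WT and in KO tumors at day 7 (0.0% of all genes in each). In WT tumors 46 of 61 genes were higher, against 68.7% of all genes, and the median was 0.23, below the 0.68 of all genes. In the third run 26 of 29 genes were higher and in the first run 11 of 15 were lower, with medians of 0.33 and -0.52. Hist1h3g (0.69 ± 0.20 SE) and Hist2h2bb (0.88 ± 0.25 SE) had the smallest unadjusted p, each with an adjusted p of 0.305. Without the WT anti-PD-1 tumor 2, the 1 library of its group with little receptor background, 5 of the 61 histone genes passed, against 6.62% of all genes. In KO tumors 31 of 61 genes were higher, against 41.9% of all genes, with a median of 0.02. Hist2h2bb (0.62 ± 0.25 SE) and Hist1h1a (-1.34 ± 0.55 SE) had the smallest unadjusted p there, each with an adjusted p of 1. At an unadjusted p under 0.05, 9 histone genes were higher and 0 lower in WT tumors, against 10.6% and 5.75% of all genes, and 1 was higher and 2 lower in KO tumors, against 0.85% and 1.09%. DESeq2 called 2 in WT tumors, where it called 1.05% of all genes, and 0 in KO tumors, where it called 0.0713%. The difference between these effects, tested as an interaction, was past the threshold for 0 histone genes with either tool (0.0% of all genes with edgeR, 0.0616% with DESeq2; before adjustment 0 were higher and 2 lower, against 0.973% and 6.44% of all genes), with a median of -0.23 against -0.47 over all genes. The smallest unadjusted p belonged to Hist1h2aa (-9.51 ± 3.60 SE, adjusted p = 0.670), a gene listed at 0 in 10 of these 18 libraries. Hist1h2bk had the next (-0.90 ± 0.39 SE, adjusted p = 0.670). IgG against untreated WT tumors also gave 0 passing histone genes by either tool (0.0% of all genes with edgeR, 0.114% with DESeq2), with a median of -0.08. Before adjustment 1 of the 61 genes was higher and 5 were lower, against 5.54% and 2.29% of all genes, and the smallest p belonged to Hist1h3g (-0.66 ± 0.20 SE) and Hist2h3c2 (-2.35 ± 0.79 SE), each with an adjusted p of 0.565. The fold change of Hist2h3c2 was between -2.80 and -0.52 without 1 library. Its highest level at day 7, 10.7 CPM, was in the untreated WT tumor 2.

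The genes that make, process or accompany histone mRNA were counted in the same fits. In all 17 comparisons, 0 genes passed in each of the 5 lists. Of the 17 measured genes for the synthesis and 3′ processing of histone mRNA, which include Slbp, 2 had a positive log2 fold change in untreated KO against WT tumors, with a median of -0.16, and Slbp itself had -0.10 ± 0.17 SE (adjusted p = 0.746). Of the 34 S-phase genes, 15 were positive, with a median of -0.04, and of the 20 mitosis genes 4, with a median of -0.25. Of the 11 replication-independent histones, 8 were positive, with a median of 0.20, and all 4 tested RNAs without a poly(A) tail were positive, with a median of 1.25. Of all genes 67.1% were positive in this comparison. At 6 h, 31 of the 34 S-phase genes were higher after anti-PD-1 than after IgG, with a median of 0.22, against 42.9% of all genes. After IgG, 33 of 34 were lower than in untreated tumors, with a median of -0.33, where 57.8% of all genes were higher. In both comparisons 0 of the 34 had an unadjusted p under 0.05. The IgG tumor 6, shared by both, had a mean log2 S-phase level of 5.36, against 5.72 and 5.66 in the other IgG tumors.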

How the data were processed

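RNA-seq counts per gene of 48 tumors were analysed as the authors deposited them. Per the labels and the study's methods, total RNA libraries from a strand-specific NuGEN kit were sequenced paired-end, trimmed with cutadapt 1.8.1, aligned with STAR 2.7.7a to mm10 and counted with RSEM 1.3.0 on GENCODE vM21. The deposited table holds whole counts and is named for another counting program, featureCounts, so how reads shared by near-identical copies were counted is not certain. Groups were read from the sample titles, since other label fields conflict with them. The titles of the 6 h groups read D0, and 6 h was taken from the time field of most of them and the study's text, as was day 7 from that text. Each experiment was fitted on its own in edgeR 4.0.16 (R 4.3.3; TMM, filterByExpr with a minimum count of 10, quasi-likelihood F-test, Benjamini-Hochberg adjustment over all genes, threshold 0.05), with 1 coefficient per group. DESeq2 1.42.0 and the other alternatives are given with their effect in the closing section. Named genes were the 3 highest per class and, in each comparison, those that passed or up to 2 with the smallest p. The testis, Hist2, Hist3 and Hist4 genes, Hist1h1c and Hist1h2bc were also named. The members and lists were chosen with earlier results of these data known. On simulated data with 200 genes changed 4-fold, 150 were called at 6 h and 149 at day 7 (anti-PD-1 against IgG, WT). The changed genes were drawn from those with a mean of at least 1 CPM. Smaller changes and lower genes were not simulated. Replicates were checked and none was a copy of another (chi-square per gene 16.2 to 410.8, where sampling noise gives about 1). Per the study, each library of 6 h and day 7 was a single tumor from its own mouse, and for the other times p-values measure the spread between samples of which this is not stated. Values after ± are an SE of the edgeR fit or an SD over 3 tumors, and both include the spread between libraries. The floor, a count of 3, covers counting error only.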

Additional observations from a re-analysis of the deposited data

How the results depend on the processing

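The number of histone genes called stayed within 1.5 times the main count in 212 of its 235 alternatives. In most comparisons the main count was 0 and stayed 0, so this total says little about the calls. It stayed within that range in 6 of 14 alternatives between untreated KO and WT tumors. Between KO IgG and untreated KO tumors it did so in 4 of 14. Between untreated KO and WT tumors, where 2 were called (0.587% of all genes), the count was 6 without a filter on low counts (2.63% of all genes), 5 with DESeq2 (3.11%), 4 with only the compared groups fitted (2.18%) and 1 with the receptor background as a covariate (0.104%). It ranged from 0 to 3 when 1 library was left out, against 0.00324% to 0.678% of all genes (0 without the untreated WT tumor 1, and 1 without the untreated WT tumor 2 or 3 or the untreated KO tumor 1). Between KO IgG and untreated KO tumors, where 1 was called (0.188%), it was 5 without a filter (2.66%), 3 with DESeq2 (2.3%), 5 with only the compared groups (2.92%), 0 with the covariate (0.0%) and 2 without the 3 libraries with most background (1.02%). It ranged from 0 to 1 without 1 library, against 0.0% to 0.402% (0 without the untreated KO tumor 1 or 2 or any KO IgG tumor). Between anti-PD-1 and IgG in WT tumors at day 7, where 0 were called, it was 1 without a filter (1.92%) and 2 with DESeq2 (1.05%), and ranged from 0 to 5 without 1 library (0.0% to 6.62%). It was 1 without a filter between KO and WT tumors given IgG (0.535%), and 1 with DESeq2 between those given anti-PD-1 (9.84%). The cause was not tested. Hist1h2bp in untreated tumors at day 1 against 0 h had a log2 fold change of -3.48, between -6.17 and 0.53 without 1 library (0.53 without the untreated 0 h tumor 2). The replicate numbers did not pair the samples (median correlation of deviations -0.0265 and -0.0188). With the replicate number as a block, the number of histone genes called was that of the main fit in every comparison. The low genes and near-identical copies limit what these libraries show of single genes.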
